A study of Homo sapiens with 27 samples.

Results

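DMSO-treated EBC-1 cells were compared with DMSO-treated HCC827 cells, the baseline state of a MET-dependent and a MET-independent lung cancer line. The members are the 3 arrays titled as EBC-1 controls and the 3 titled as HCC827 controls, 6 of the 27 arrays of the series. Per the labels and design text, EBC-1 and HCC827 are human non-small cell lung cancer lines, EBC-1 is addicted to MET, and HCC827 has activated c-Met but no MET dependency. All 6 cultures received DMSO, the solvent, for a time that the labels do not give, and none received SGX-523, the MET kinase inhibitor used at 1 uM for 24 h or 48 h on the other EBC-1 and HCC827 arrays. The series also holds the gastric cancer line MKN-45 under the same treatments. Replicates are biological per the labels, which say nothing more about separate cultures, so the p-values measure the spread between these samples. Each line is a single cell line, and line, culture and any handling that differed between the lines cannot be told apart.

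MET is the receptor tyrosine kinase for hepatocyte growth factor, and EGFR is the receptor for EGF-like ligands such as TGFA, BTC and HBEGF. Both signal through RAS and the kinase ERK, whose output includes immediate early transcription factors such as FOS and EGR1 and the feedback inhibitors of the DUSP and SPRY families. EBC-1 is known as a squamous lung carcinoma line with amplified MET, and HCC827 as a lung adenocarcinoma line with a mutated and amplified EGFR. Lung adenocarcinoma cells often keep NKX2-1 and surfactant-handling genes, and squamous cells usually express TP63, SOX2 and KRT5. On these arrays the measured squamous markers SOX2 and KRT5 were low in EBC-1 and gut markers such as KRT20, CDH17, VIL1 and CDX2 were present. The wider lists were mixed. Of 8 squamous and basal genes tested, 3 were at least 2-fold higher in EBC-1 than in HCC827 and 1 lower. Among the higher were SERPINB5 (9.63 in EBC-1) and KRT15 (8.86). Of 9 gut and liver genes tested, 6 were higher in EBC-1. The 2 lower, FGB (3.30) and SERPINA1 (3.33), were near background in EBC-1. Over all genes tested, 12% were at least 2-fold higher in EBC-1 and 13.1% lower. The identity of the line could not be checked from the files, and each EBC-1 value is that of the cells labelled EBC-1.

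Each array gave a log2 signal for 49395 probe sets. The deposited array medians were 5.02 to 5.04 on the EBC-1 arrays and 5.72 on each HCC827 array, and the 6 arrays were brought to a common distribution by quantile normalization, with a median of 5.38. A gene was represented by its brightest probe set, and 11329 genes passed the filter, which asks for signal at or above the array median on at least 3 of the 6 arrays. Correlation between arrays across probe sets was at least 0.9968 within EBC-1 and at least 0.9970 within HCC827, and 0.913 to 0.916 between the lines. The drop from the 3′ to the 5′ probe set of ACTB was 3.35 ± 0.13 log2 units in EBC-1 and 2.09 ± 0.073 in HCC827 (SD, n = 3 each; exact permutation test, two-sided p = 0.1, the smallest that 3 against 3 arrays can give). For GAPDH that drop was 0.319 ± 0.027 in EBC-1 and 0.166 ± 0.020 in HCC827 (SD, n = 3 each; exact permutation p = 0.1). The part of this difference in RNA or labelling in the gene results was not tested. The 42 external control probe sets had median signals of 8.10 in EBC-1 and 8.12 in HCC827 after normalization (exact permutation p = 0.6).

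The lines differed at most genes. At an adjusted p under 0.05 (limma, Benjamini-Hochberg), 9224 of 11329 genes differed, 81.4% of those tested, with 4665 higher in EBC-1 (41.2%) and 4559 lower (40.2%). A difference of at least 2-fold past the same threshold, termed a call below, was found for 2847 genes (25.1%), of which 1361 were higher in EBC-1 (12%) and 1486 lower (13.1%). Counts of called genes in the lists below stand beside these shares. The median difference over all genes was 0.01 log2 units, the median size was 0.49, and the median standard error was 0.065. All differences are EBC-1 minus HCC827 on the log2 scale. Signals of the 3 EBC-1 arrays did not overlap those of the 3 HCC827 arrays at 82.4% of genes, so separation of the arrays alone says little about a single gene.

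The balance of directions depends on the scaling. After quantile normalization 47.8% of the 2-fold calls were higher in EBC-1. On the deposited values without normalization, where the median of all genes was -0.47, there were 808 higher and 2700 lower calls, 23% of them higher. With every array centred on its median, which set the median of all genes at 0.21, there were 1880 higher and 1199 lower calls, 61.1% of them higher. Of the 2847 calls, 2289 were called in the same direction on the deposited values and 2560 after centring, and 0 were called in the opposite direction in either.

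In most of the large differences the lower line lay under the array median of 5.38. At least 16-fold differences were seen for 107 genes higher in EBC-1 and 175 lower in EBC-1. In 88 of those 107, the HCC827 mean lay under the array median, and in 155 of the 175 the EBC-1 mean did. A gene can pass the filter through its higher line alone, and the array median lies above the background medians given below. The counts therefore do not show that a gene was off. At 64-fold, 23 genes were higher in EBC-1 and 39 lower. The 23 probe sets that measure array background by base composition had median signals of 2.91 in EBC-1 and 2.97 in HCC827. Single sets among them ran from 2.14 on an EBC-1 array to 10.07 on an HCC827 array. A signal of 3 or 4 is thus near the median background, termed background below. The size of such a difference is less certain than its direction.

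**Figure D1:**
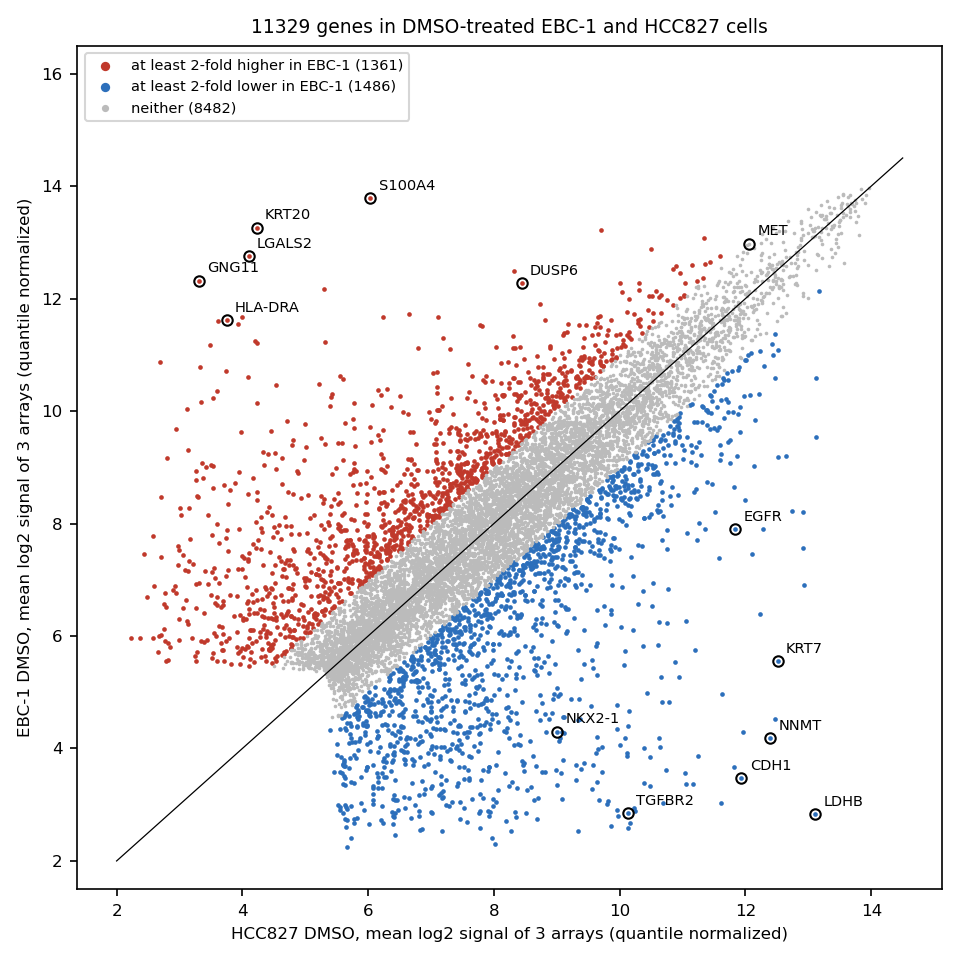
Mean log2 signal of each of 11329 genes in the 3 EBC-1 arrays (vertical axis) against the 3 HCC827 arrays (horizontal axis), after quantile normalization, with the line of equal signal. Red points are the 1361 genes at least 2-fold higher in EBC-1, blue points the 1486 at least 2-fold lower and grey points the others, and circles mark named genes such as KRT20 far above the line and LDHB far below it.

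Among the genes highest in EBC-1 relative to HCC827 were several known from gut or gastric epithelium. KRT20, an intestinal keratin, had log2 signals of 13.37, 13.34 and 13.07 in EBC-1 arrays, against 4.19, 4.16 and 4.34 in HCC827 arrays. All 3 EBC-1 arrays were near the top of the array's range and all 3 HCC827 arrays near background, a difference of 9.03 ± 0.071 (SE), or 524-fold (limma adjusted p = 1.92e-22). GNG11, a G protein gamma subunit, had 12.37, 12.26 and 12.33 in EBC-1, against 3.58, 3.22 and 3.13 in HCC827 (difference 9.01 ± 0.090). LGALS2, a sugar-binding galectin, had 12.71, 12.79 and 12.75 in EBC-1, against 4.39, 3.95 and 3.97 in HCC827 (difference 8.65 ± 0.088). CDH17, the liver-intestine cadherin, had 11.59, 11.47 and 11.56 in EBC-1, against 3.86, 3.94 and 3.98 in HCC827 (difference 7.61 ± 0.062). In each of these genes the lines were separated by far more than the spread of the arrays. Large differences without overlap were a condition of their choice.

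The other members of the 15 highest were SERPINB9 (difference 8.19), an inhibitor of granzyme B, and DNAJC15 (7.98), a mitochondrial co-chaperone. They also included HLA-DRA (7.86), the alpha chain of HLA-DR, the calcium-binding S100A4 (7.75), the extracellular glycoprotein reelin encoded by RELN (7.69), and ANXA10 (7.67), an annexin of gastric epithelium. NMUR2, a neuromedin U receptor (7.45), TM4SF4, a tetraspanin-like membrane protein (7.05), CYP3A5, a drug-metabolizing cytochrome (6.98), HTRA1, a secreted serine protease (6.98), and SLC15A1, the intestinal peptide transporter (6.92), completed them. In HCC827 the array values of these 15 genes lay between background and 6.07, the highest being S100A4.

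The genes lowest in EBC-1 were led by a metabolic enzyme. LDHB, the B subunit of lactate dehydrogenase, had log2 signals of 2.79, 2.79 and 2.92 in EBC-1 arrays, against 13.10, 13.09 and 13.15 in HCC827 arrays. EBC-1 was thus at background on every array, with a difference of -10.28 ± 0.058 (SE; limma adjusted p = 4.14e-24). MAL2, a protein of apical membrane traffic, had 2.77, 3.26 and 3.07 in EBC-1, against 11.61, 11.63 and 11.60 in HCC827 (difference -8.58 ± 0.094). CDH1, the epithelial adhesion molecule E-cadherin, had 3.87, 2.83 and 3.71 in EBC-1, against 11.89, 12.01 and 11.91 in HCC827 (difference -8.47 ± 0.172). A second CDH1 probe set was lower in EBC-1 as well, by a smaller difference of -1.71. NNMT, which methylates nicotinamide, had 4.12, 4.06 and 4.36 in EBC-1, against 12.41, 12.41 and 12.37 in HCC827 (difference -8.21 ± 0.068).

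The remaining 11 of the 15 lowest were CD24 (difference -8.15), a surface sialoglycoprotein, PLAU (-7.94), the urokinase plasminogen activator, and LCP1 (-7.79), an actin-bundling plastin. PLOD2, a collagen lysyl hydroxylase (-7.69), COXFA4L3 (-7.67), THBS1, the matrix protein thrombospondin (-7.65), and BCAT1, a branched-chain aminotransferase (-7.55), followed. EDIL3, an integrin-binding matrix protein, was at -7.49, ANXA3, an annexin, at -7.48, LY6K at -7.38 and NETO2, a glutamate receptor accessory subunit, at -7.36. Every EBC-1 array value of these 15 genes was below every HCC827 value, but this was a condition of their choice. Arrays without overlap, in either direction, were found at 82.4% of all genes.

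**Figure D2:**
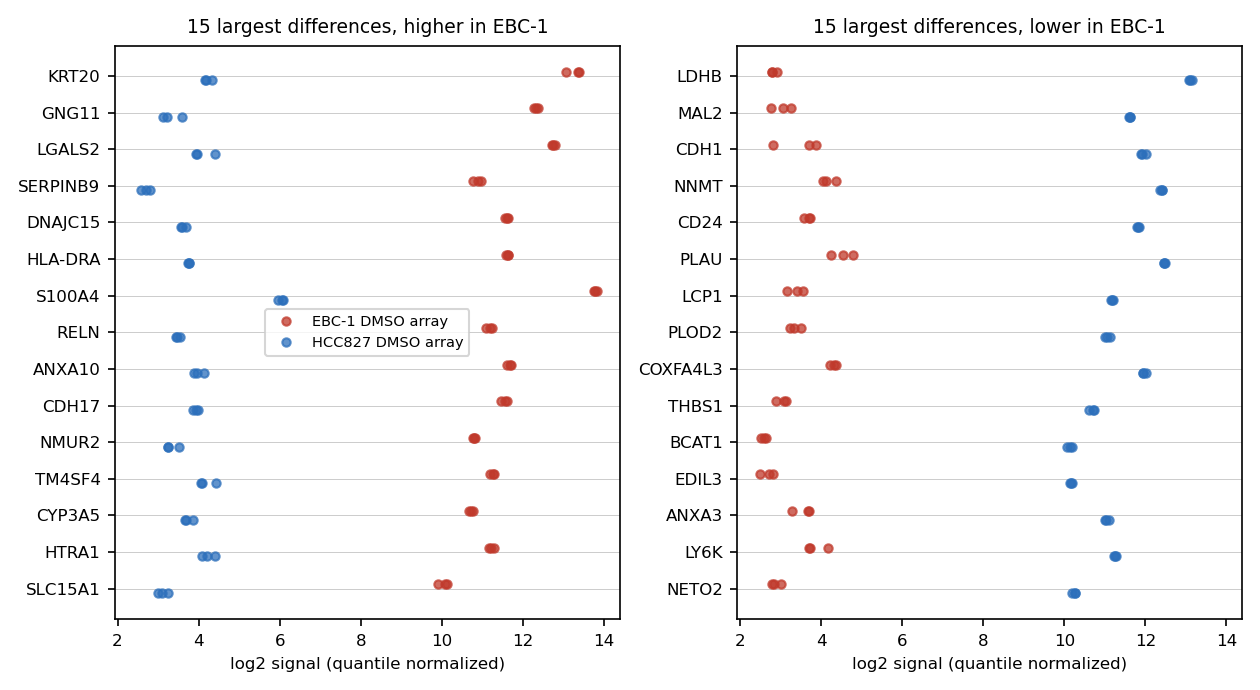
Log2 signal after quantile normalization of each EBC-1 array (red) and each HCC827 array (blue) for the 15 genes with the largest difference in each direction, those higher in EBC-1 on the left and those lower on the right. Arrays of a line cluster tightly, KRT20 lies near 13 in EBC-1 and near 4 in HCC827, and LDHB lies near 3 in EBC-1 and near 13 in HCC827.

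Promoter sequences are shown for 2 of the genes that are near background in HCC827 and 2 that are near background in EBC-1, because their content of the dinucleotide CG, the site of DNA methylation, differs. The contrast between the sequences shown is therefore part of the choice. MAL2, CDH1 and NNMT had larger differences than CD24 and are not shown. The sequences run from 250 bases before to 50 bases after the gene start, 5′ to 3′ on the gene's strand (RefSeq, GRCh38.p14), with each CG in capitals.
KRT20 (chr17:40885193-40885492, minus strand): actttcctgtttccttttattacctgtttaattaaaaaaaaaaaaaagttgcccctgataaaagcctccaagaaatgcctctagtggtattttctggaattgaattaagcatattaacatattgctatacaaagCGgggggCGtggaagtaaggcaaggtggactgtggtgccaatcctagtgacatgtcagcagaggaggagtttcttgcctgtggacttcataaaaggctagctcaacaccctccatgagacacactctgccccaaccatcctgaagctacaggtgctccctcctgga
GNG11 (chr7:93921485-93921784, plus strand): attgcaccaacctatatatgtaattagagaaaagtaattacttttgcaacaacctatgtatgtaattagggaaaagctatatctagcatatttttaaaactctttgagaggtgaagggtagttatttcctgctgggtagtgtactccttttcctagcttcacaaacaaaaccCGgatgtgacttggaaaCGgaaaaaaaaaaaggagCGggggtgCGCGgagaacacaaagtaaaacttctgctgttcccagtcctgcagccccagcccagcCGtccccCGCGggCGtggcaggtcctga
LDHB (chr12:21657793-21658092, minus strand): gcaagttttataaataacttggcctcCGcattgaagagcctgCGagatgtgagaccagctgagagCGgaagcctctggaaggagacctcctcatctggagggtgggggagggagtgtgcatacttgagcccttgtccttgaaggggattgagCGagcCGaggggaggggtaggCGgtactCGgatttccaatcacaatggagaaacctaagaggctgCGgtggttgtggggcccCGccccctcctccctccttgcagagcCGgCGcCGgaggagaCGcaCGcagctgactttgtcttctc
CD24 (chr6:106975578-106975877, minus strand): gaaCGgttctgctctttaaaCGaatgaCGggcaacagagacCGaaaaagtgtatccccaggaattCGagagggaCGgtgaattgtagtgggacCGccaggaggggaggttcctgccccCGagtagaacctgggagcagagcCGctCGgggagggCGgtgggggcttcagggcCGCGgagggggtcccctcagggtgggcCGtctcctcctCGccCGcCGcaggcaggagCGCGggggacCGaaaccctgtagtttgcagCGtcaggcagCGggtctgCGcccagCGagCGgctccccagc

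The dinucleotide reads the same on both strands. The KRT20 promoter holds 2 CG and the GNG11 promoter 9, against 14 in LDHB and 25 in CD24. Of 27305 promoters of this length, 81% hold more than KRT20, 56% more than GNG11, 48.8% more than LDHB and 29.8% more than CD24. Over the genes at least 64-fold higher in EBC-1, 17 of 23 matched a promoter and the median was 6 CG, with quartiles of 2 and 24. Over those at least 64-fold lower in EBC-1, 29 of 39 matched, and the median was 24 with quartiles of 8 and 34. The median over all genes tested was 26, with quartiles of 18 and 34 and 9342 of 11329 matched. Both extreme groups span a wide range. These counts describe the sequence alone, were examined after the differences were seen, and were not tested.

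MET itself was high in both lines and 1.9-fold higher in EBC-1. Its log2 signals were 12.99, 12.92 and 13.03 in EBC-1 arrays, against 12.05, 12.08 and 12.04 in HCC827 arrays, with no overlap. The difference was 0.92 ± 0.032 (SE; limma adjusted p = 3.11e-14), under the 2-fold limit of a call. It came from the brightest MET probe set, and 6 of 6 MET probe sets were higher in EBC-1, by 0.92 to 2.79. HGF, the ligand of MET, did not pass the filter, with signals of 3.30, 3.43 and 3.35 in EBC-1 and 3.42, 3.57 and 3.45 in HCC827.

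EGFR showed the largest difference among the receptor tyrosine kinases. Its log2 signals were 7.88, 7.87 and 7.95 in EBC-1 arrays, against 11.87, 11.79 and 11.85 in HCC827 arrays. The EBC-1 arrays were low throughout, by -3.94 ± 0.040 (SE), a 15.3-fold difference (limma adjusted p = 3.93e-21), and 6 of 6 probe sets that passed the filter were lower in EBC-1. ERBB2, the partner receptor of the EGFR family, had 7.83, 7.78 and 7.68 in EBC-1, against 7.51, 7.49 and 7.39 in HCC827. ERBB3, the kinase-impaired member that couples to PI3 kinase, had 7.75, 7.74 and 7.66 in EBC-1, against 7.62, 7.45 and 7.44 in HCC827. Those differences of 0.30 and 0.21 passed the test but are smaller than the shift between scalings: on the deposited values they were -0.14 for ERBB2 and -0.23 for ERBB3, so neither has a settled direction.

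Of 20 receptor tyrosine kinases tested, from a list of 32, 6 were called higher in EBC-1, 4 lower and 10 neither. That is 50% called, against 25.1% of all genes. Their median of 0.55 became -0.04 on the deposited values. AXL, the GAS6 receptor, had 8.12, 7.91 and 8.08 in EBC-1, against 5.80, 6.12 and 5.88 in HCC827 (difference 2.10 ± 0.089). The fibroblast growth factor receptors FGFR1 (2.06) and FGFR3 (1.48) and the insulin receptor INSR (1.66) were also higher in EBC-1. IGF1R, the receptor for insulin-like growth factor, had 4.63, 4.76 and 5.17 in EBC-1, against 7.23, 7.57 and 7.44 in HCC827 (difference -2.56 ± 0.127). The pseudokinase receptors ROR1 (-2.88) and PTK7 (-1.65) were lower in EBC-1 too.

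Ligands of these receptors were called lower in EBC-1 more often than higher. Of 16 tested from a list of 28, 2 were higher, 8 lower and 6 neither, 62.5% called against 25.1% of all genes. The median was -1.21, against 0.01 over all genes. VEGFC, a lymphatic growth factor, had 3.92, 3.29 and 3.65 in EBC-1, against 9.0, 9.0 and 8.96 in HCC827 (difference -5.37 ± 0.121). NRG1, the neuregulin that binds ERBB3, had 5.53, 5.43 and 5.33 in EBC-1, against 9.66, 9.50 and 9.58 in HCC827 (difference -4.15 ± 0.070). FGF2 was at -3.64 and BTC, an EGFR ligand, at -2.48. PDGFA, the A chain of platelet-derived growth factor, went the other way, with 10.38, 10.43 and 10.35 in EBC-1, against 6.39, 6.26 and 6.25 in HCC827 (difference 4.09 ± 0.054), as did EFNB2, an ephrin (1.81).

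ERK output genes were called higher in EBC-1 in 9 of 20 cases and lower in 3. Together 60% were called, against 25.1% of all genes, and the median was 0.73. DUSP6, the phosphatase that switches ERK off, had 12.27, 12.33 and 12.21 in EBC-1, against 8.44, 8.48 and 8.39 in HCC827. That is a difference of 3.83 ± 0.039 (SE), or 14.2-fold (limma adjusted p = 4.6e-21). FOS, an immediate early transcription factor, had 9.76, 9.84 and 9.71 in EBC-1, against 4.99, 5.01 and 4.97 in HCC827 (difference 4.78 ± 0.065). ETV1, an ETS factor induced by ERK, had 10.18, 10.33 and 10.28 in EBC-1, against 6.43, 6.59 and 6.51 in HCC827 (difference 3.75 ± 0.057). The feedback inhibitor SPRY1 was higher by 2.92.

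The list was not uniform. CCND1, the cyclin D1 gene, had 8.02, 8.13 and 8.19 in EBC-1, against 10.44, 10.54 and 10.42 in HCC827 (difference -2.35 ± 0.050). FOSL1, a FOS relative (-1.94), and IER3, an early response gene (-1.35), were lower in EBC-1 as well. For context, in a normalization of all 27 arrays the mean DUSP6 signal in EBC-1 was 12.17 with DMSO, 8.18 after 24 h of SGX-523 and 7.78 after 48 h, beside 8.35 in HCC827 with DMSO. On the same scale the FOS signal of EBC-1 averaged 9.67 with DMSO, 9.67 at the 24 h time and 9.13 at the 48 h time, beside 4.90 in HCC827 with DMSO. These SGX-523 levels are given as a description, and no test of them was made. Of 12 JAK-STAT and NF-kB regulators tested from 18, 0 were called higher and 3 lower, 25% against 25.1% of all genes, with a median of -0.54. The 3 were TNFAIP3, the NF-kB feedback inhibitor A20 (-2.61), the kinase JAK1 (-2.27) and the cytokine feedback gene SOCS2 (-1.56).

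Both lines carried the simple epithelial markers KRT18 and EPCAM, but CDH1, of the same set, averaged 3.47 in EBC-1 and 11.93 in HCC827. KRT18 and EPCAM were named here as defining markers and not for their differences. Of 26 simple epithelial and junction genes tested, 15 were called lower in EBC-1 and 1 higher, 61.5% against 25.1% of all genes. KRT18 averaged 13.74 in EBC-1 and 13.30 in HCC827, and EPCAM, an epithelial adhesion molecule, averaged 11.91 in EBC-1 and 12.43 in HCC827. Squamous markers were mostly low in both lines: of 25 squamous and basal genes, 8 passed the filter, 12 did not and 5 had no single-gene probe set and were not analysed here, TP63 among them. SOX2 was at 5.31, 5.14 and 4.76 in EBC-1 and 5.08, 5.15 and 4.75 in HCC827, and KRT5 was at 4.87, 5.01 and 4.96 in EBC-1 and 4.72, 4.76 and 4.57 in HCC827, all under the array median. Of the 8 tested, 3 were called higher in EBC-1, SERPINB5 or maspin (2.97), the desmosomal cadherin DSC3 (1.47) and KRT15 (1.27), and 1 lower, the cornified envelope gene SPRR1B (-3.63). Their median was -0.16, and 0.06 with arrays centred on their medians, and 50% were called against 25.1% of all genes.

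Alveolar and club cell genes were tested in 10 of 23 cases, with 1 called higher in EBC-1, 4 lower and 5 neither. Calls made up 50% of those tested, against 25.1% of all genes, and the median was -0.34. NKX2-1, the lung lineage transcription factor, had 4.80, 4.09 and 4.0 in EBC-1, against 8.96, 9.03 and 9.03 in HCC827. EBC-1 arrays were near background, at a difference of -4.71 ± 0.147 (SE; limma adjusted p = 7.28e-15), and the other NKX2-1 probe set differed by -0.92. NAPSA, an aspartic protease that processes surfactant protein B, had 5.98, 6.10 and 6.20 in EBC-1, against 9.20, 9.14 and 9.17 in HCC827 (difference -3.07 ± 0.067). LPCAT1, an enzyme of surfactant lipid synthesis (-3.57), and LAMP3, a lamellar body protein (-1.91), were lower in EBC-1, and ABCA3, a surfactant lipid transporter, was higher by 1.01. The surfactant genes SFTPB and SFTPC themselves were low in both lines, with means of 5.24 and 6.0 in EBC-1 and 5.47 and 6.17 in HCC827, and neither difference passed the test (limma adjusted p = 0.0729 and 0.0956).

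Gut and liver lineage genes were called in 8 of 9 cases tested from 18, with 6 higher in EBC-1 and 2 lower. The share called was 88.9%, against 25.1% of all genes, and the median was 1.87. VIL1, the microvillar protein villin, had 8.12, 8.18 and 8.17 in EBC-1, against 2.92, 2.98 and 3.17 in HCC827 (difference 5.13 ± 0.101). CDX2, the intestinal homeobox factor, had 7.21, 7.26 and 6.88 in EBC-1, against 4.72, 4.96 and 4.95 in HCC827 (difference 2.24 ± 0.112), and the galectin LGALS4 was higher by 2.94, the surface antigen GPA33 by 1.87 and the nuclear receptor HNF4G by 1.78. The 2 lower genes are secreted by liver, fibrinogen beta FGB (-5.06) and the antitrypsin gene SERPINA1 (-4.08). The gastric line MKN-45 had a mean KRT20 signal of 4.64 with DMSO, beside 13.22 in EBC-1 and 4.14 in HCC827, and a mean CDH17 signal of 8.83, beside 11.43 in EBC-1 and 3.84 in HCC827 (27-array normalization).

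Airway secretory and mucin genes divided evenly, with 4 called higher in EBC-1, 4 lower and 3 neither of 11 tested from 22 (median -0.21). The called share was 72.7%, against 25.1% of all genes. CEACAM6, a cell surface adhesion molecule, had 11.64, 11.64 and 11.74 in EBC-1, against 6.10, 6.28 and 6.34 in HCC827 (difference 5.43 ± 0.058). The mucin MUC13 (3.38), the disulfide isomerase AGR2 (2.98) and the siderophore-binding LCN2 (1.24) were higher too. MUC4 had 2.89, 2.66 and 2.79 in EBC-1, against 8.28, 8.51 and 8.26 in HCC827 (difference -5.57 ± 0.107), and the mucins MUC16 (-4.13) and MUC1 (-2.16) and the protease inhibitor SLPI (-1.54) were lower. Neuroendocrine genes were tested in 6 of 16 cases, 2 higher, 2 lower and 2 neither (median -0.25), 66.7% called against 25.1% of all genes. The granule protein CHGB (4.55) and the decarboxylase DDC (1.45) stood against the synaptic vesicle protein SYT1 (-3.02) and the enolase ENO2 (-1.57).

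Simple epithelial and junction genes were called lower in EBC-1 in 15 of 26 cases, 1 was higher and 10 were neither. In all, 61.5% were called, against 25.1% of all genes. The median was -1.39, against 0.01 over all genes. The 1 higher gene is KRT20. KRT7, a keratin of lung and other simple epithelia, had 5.44, 5.63 and 5.61 in EBC-1, against 12.52, 12.55 and 12.45 in HCC827. EBC-1 arrays lay just above the array median, a difference of -6.95 ± 0.053 (SE; limma adjusted p = 1.84e-22). ESRP1, a splicing factor of the epithelial programme, had 3.11, 2.96 and 2.74 in EBC-1, against 10.27, 10.23 and 10.20 in HCC827 (difference -7.30 ± 0.093). CDH1 and MAL2, described above, belong to the same list.

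Mesenchymal genes did not show the opposite balance. Of 17 tested from 24, 4 were called higher in EBC-1, 8 lower and 5 neither. Calls were 70.6% of the tested list, against 25.1% of all genes, and the list median was -0.99. ZEB1, a repressor of CDH1, had 8.47, 8.65 and 8.58 in EBC-1, against 6.0, 6.13 and 6.36 in HCC827 (difference 2.40 ± 0.085). S100A4 (7.75), the collagen COL6A1 (3.16) and the smooth muscle actin ACTA2 (1.98) were higher as well. FN1, the matrix protein fibronectin, had 4.70, 4.66 and 4.98 in EBC-1, against 9.99, 10.02 and 9.88 in HCC827 (difference -5.18 ± 0.083). TGFBI, a secreted adhesion protein (-5.35), the collagen cross-linking enzyme LOXL2 (-4.15) and the actin-binding CALD1 (-2.25) were lower. EBC-1 was therefore low for members of both lists.

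**Figure D3:**
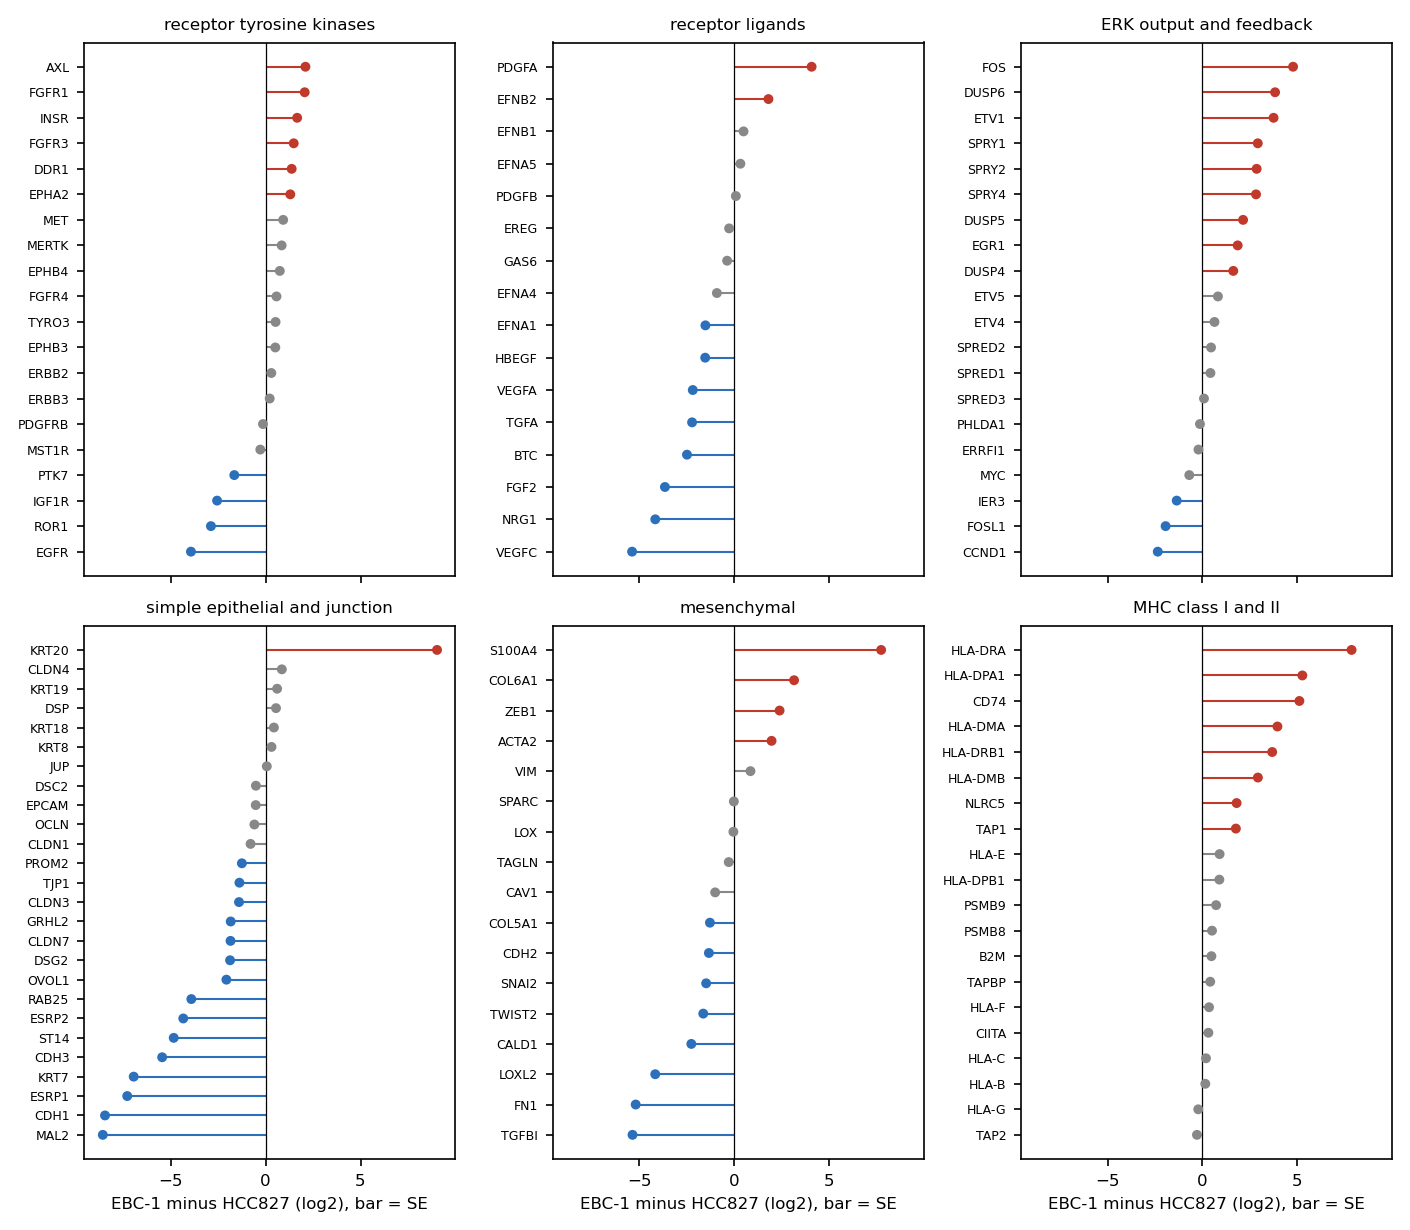
Difference between EBC-1 and HCC827 (log2, horizontal axis, 3 arrays each) for every tested gene of 6 lists, with bars of 1 standard error that are mostly smaller than the points. Red and blue mark calls higher and lower in EBC-1 and grey the genes not called; ERK output genes lie mostly to the right, and simple epithelial genes mostly to the left, with KRT20 the exception at 9.03.

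Adhesion and matrix genes were called in both directions. Of 16 integrins and laminins tested from 22, 2 were called higher, 5 lower and 9 neither (median -0.58). That is 43.8% called, against 25.1% of all genes. ITGB8, an integrin beta subunit that activates latent TGF-beta, had 10.43, 10.35 and 10.59 in EBC-1, against 4.50, 4.62 and 4.50 in HCC827 (difference 5.92 ± 0.072), and ITGB4 was higher by 1.78. The laminin chain LAMB3 had 4.06, 3.71 and 4.24 in EBC-1, against 10.41, 10.40 and 10.36 in HCC827 (difference -6.39 ± 0.102), and the hyaluronan receptor CD44 (-3.26) and the laminin chains LAMB1 (-2.96) and LAMC1 (-1.26) were lower. Of 15 proteases and plasminogen activation genes tested from 25, 5 were higher, 5 lower and 5 neither (median -0.23). Of these, 66.7% were called, against 25.1% of all genes. The kallikreins KLK11 (3.96) and KLK10 (3.02), the matrix protease MMP7 (2.65) and its inhibitor family member TIMP2 (1.72) were higher, as was MMP15 (1.17), and PLAU (-7.94), MMP9 (-3.28), the protease inhibitor SERPINE2 (-1.30), MMP14 (-1.09) and the urokinase receptor PLAUR (-1.01) were lower.

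Antigen presentation genes were called in 1 direction. Of 20 MHC genes tested from 22, 8 were higher in EBC-1, 0 lower and 12 neither, with a median of 0.81. That is 40% called, against 25.1% of all genes. HLA-DRA had 11.59, 11.63 and 11.62 in EBC-1, against 3.75, 3.74 and 3.76 in HCC827 (difference 7.86 ± 0.057, limma adjusted p = 1.45e-22). HLA-DPA1, another class II chain, had 10.49, 10.52 and 10.45 in EBC-1, against 5.58, 5.09 and 4.98 in HCC827 (difference 5.27 ± 0.108). CD74, the invariant chain of class II, had 9.81, 9.76 and 9.91 in EBC-1, against 5.21, 4.32 and 4.62 in HCC827 (difference 5.11 ± 0.146), and HLA-DMA, which loads class II peptides, was higher by 3.95. CIITA, the class II transactivator, averaged 5.99 in EBC-1 and 5.67 in HCC827, a difference of 0.32 that was not a call; it was singled out after its value was seen. HLA genes are near-identical in places, so single probe sets can read several of them.

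Markers of other cell types were read beside these genes. Of 10 fibroblast markers, 2 passed the filter; LUM, a matrix proteoglycan, had 10.32, 10.21 and 10.17 in EBC-1, against 3.54, 3.66 and 3.40 in HCC827 (difference 6.70 ± 0.082) and was the 1 call, with PDGFRB at -0.14. The mean of the fibroblast list per array was 4.43 to 4.49 in EBC-1 and 3.81 to 3.87 in HCC827, while COL1A1 averaged 4.33 in EBC-1 and 4.43 in HCC827 and DCN 3.44 in EBC-1 and 3.23 in HCC827. Of 9 measured leukocyte markers, 3 passed the filter: HLA-DRA, the endotoxin receptor CD14 (4.19) and the lysosomal CD68 (-3.10). The mean of that list per array was 5.04 to 5.09 in EBC-1 and 3.94 to 3.99 in HCC827. HLA-DRA, with a difference of 7.86, enters this mean. The defining leukocyte gene PTPRC was at background, with 2.85, 2.78 and 2.66 in EBC-1 and 2.69, 2.85 and 2.55 in HCC827. The medians of the tested markers were 3.28 for fibroblast and 4.19 for leukocyte genes, each over 3 genes or fewer. LUM, HLA-DRA and CD14 passed the filter through their EBC-1 signal alone, and 8 fibroblast and 6 leukocyte markers did not pass. These medians therefore do not describe either list as a whole.

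Interferon-stimulated genes were called in both directions. Of 26 tested from 30, 5 were called higher in EBC-1, 11 lower and 10 neither. Calls were 61.5% of the tested list, against 25.1% of all genes, and the list median was -0.78. The interferon-induced transmembrane genes IFITM2 (3.69), IFITM1 (2.15) and IFITM3 (1.17) and the tethering factor BST2 (2.20) were higher. IFI44L had 4.31, 4.27 and 4.13 in EBC-1, against 8.32, 8.25 and 8.68 in HCC827 (difference -4.18 ± 0.108), and the apoptosis-linked XAF1 (-2.82), the RNA sensor RIGI (-2.66) and IFI6 (-2.64) were lower. Of 22 chemokines, cytokines and complement genes tested from 34, 5 were higher, 10 lower and 7 neither. Of these, 68.2% were called, against 25.1% of all genes. The list median of -0.04 was 0.05 with arrays centred on their medians. The death ligand TNFSF10 (3.31), the cytokines IL18 (3.21) and LIF (2.03) and the complement regulator CD55 (2.72) were higher. IL6 had 3.40, 3.45 and 3.47 in EBC-1, against 8.06, 7.65 and 7.69 in HCC827 (difference -4.36 ± 0.114), and the chemokines CCL20 (-2.61) and CXCL8 (-1.90) and the complement protease C1S (-2.31) were lower.

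Detoxification genes held large differences in both directions. Of 26 NRF2 and xenobiotic genes tested from 31, 7 were called higher in EBC-1, 5 lower and 14 neither. That is 46.2% called, against 25.1% of all genes. Their median of 0.30 was -0.10 on the deposited values. AKR1C2, an aldo-keto reductase, had 9.11, 9.06 and 8.88 in EBC-1, against 3.62, 3.46 and 3.52 in HCC827 (difference 5.48 ± 0.091), and its relatives AKR1C1 (5.26) and AKR1C3 (2.80) and CYP4F11 (3.27) were higher. AKR1C genes are close paralogs, so a probe set of 1 may read another. AKR1B10, an aldo-keto reductase of another subfamily, had 4.29, 4.05 and 3.86 in EBC-1, against 8.36, 8.32 and 8.26 in HCC827 (difference -4.25 ± 0.105). The vitamin D hydroxylase CYP24A1 (-2.52), the haem oxygenase HMOX1 (-2.43) and the glutathione synthesis gene GCLM (-1.67) were lower.

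Of 19 glutathione transferases and aldehyde dehydrogenases tested from 27, 5 were called higher, 3 lower and 11 neither. That is 42.1% called, against 25.1% of all genes. Their median of 0.29 was -0.10 on the deposited values. ALDH1A1, which oxidizes retinal, had 10.14, 10.14 and 10.15 in EBC-1, against 4.08, 4.31 and 4.30 in HCC827 (difference 5.91 ± 0.075). ALDH3A1 (5.73), GSTA4 (4.63) and MGST2 (2.82) were higher, and GSTP1 (-1.74), GSTT1 (-1.55) and ALDH1B1 (-1.55) lower.

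Calls in central metabolism differed between lists. Of 20 glycolysis genes tested from 22, 0 were called higher and 4 lower, 20% against 25.1% of all genes (median -0.37), LDHB by far the furthest, with the glucose transporter SLC2A1 (-1.52), the regulatory kinase PFKFB3 (-1.21) and the enolase ENO2 (-1.57). Of 25 serine, one-carbon and amino acid genes tested from 27, 0 were higher and 11 lower, 44% (median -0.92). PHGDH, the first enzyme of serine synthesis, had 5.99, 5.85 and 5.39 in EBC-1, against 9.33, 9.30 and 9.36 in HCC827 (difference -3.59 ± 0.108), and the cysteine-producing CTH (-2.45), the mTOR inhibitor DDIT4 (-2.28) and the arginine synthesis gene ASS1 (-2.02) were lower. Of 18 hypoxia response genes tested from 19, 0 were higher and 7 lower, 38.9% (median -0.95), among them PLOD2 (-7.69), the adenylate kinase AK4 (-4.19), the collagen hydroxylase P4HA2 (-2.78) and the angiogenic factor VEGFA (-2.17). Of 20 cholesterol and fatty acid genes tested from 25, 2 were higher and 2 lower, also 20%, with a median of -0.18 that was 0.04 after centring; IDI1 (1.82) and the desaturase SCD (1.05) stood against the desaturase FADS1 (-3.95) and DHCR7 (-1.35).

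Growth control genes were called about as often as genes in general. Of 19 cell cycle inhibitors and tumour suppressors tested from 23, 1 was called higher in EBC-1, the Hippo kinase LATS2 (1.20), and 4 lower, together 26.3% against 25.1% of all genes (median -0.17). TGFBR2, the type II TGF-beta receptor, had 2.77, 2.82 and 2.98 in EBC-1, against 10.16, 10.10 and 10.12 in HCC827 (difference -7.27 ± 0.084), and its other probe set differed by -0.79. ARID1A, a subunit of the SWI/SNF remodeller, had 3.89, 3.76 and 3.96 in EBC-1, against 8.63, 8.69 and 8.54 in HCC827 (difference -4.75 ± 0.089), on the 1 of its 6 probe sets that passed the filter. CDKN2A, the p16 inhibitor of CDK4 and CDK6, was at -3.34 and the SWI/SNF ATPase SMARCA4 at -1.25.

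Of 21 cyclins and cell cycle drivers tested from 25, 1 was called higher, the proliferation antigen MKI67 (1.34, with 2 of 6 probe sets higher and 0 lower), and 4 lower, together 23.8% (median -0.30). CDK4, the cyclin D partner kinase, had 9.51, 9.60 and 9.49 in EBC-1, against 13.10, 13.16 and 13.11 in HCC827 (difference -3.59 ± 0.035), and all 4 of its probe sets were lower. CDK6 (-1.67), CCND1 (-2.35) and the replication helicase subunit MCM2 (-1.33) were lower as well.

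Of 23 BCL2 family and death receptor genes tested from 26, 4 were called higher, 3 lower and 16 neither. That is 30.4% called, near the 25.1% of all genes. Their median of -0.13 was 0.13 after centring. BID (2.21), BAK1 (1.59) and FAS (1.07), which promote cell death, and CFLAR (1.77), which blocks it, were higher, although of 8 CFLAR probe sets 3 were higher and 3 lower. BCL2A1, a survival protein induced by NF-kB, had 3.10, 2.70 and 2.89 in EBC-1, against 7.99, 7.88 and 7.86 in HCC827 (difference -5.02 ± 0.114), and the BH3-only genes BIK (-3.57) and PMAIP1 (-1.52) were lower. Of 19 p53 targets tested from 21, 4 were higher, 3 lower and 12 neither, so 36.8% were called against 25.1% of all genes. Their median of 0.25 was -0.31 on the deposited values. GDF15 (3.02), ZMAT3 (1.70), DDB2 (1.60) and FAS (1.07) stood against PLK2 (-6.21), TP53INP1 (-1.78) and TIGAR (-1.30).

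Of 21 homeobox and developmental factors tested from 36, 6 were called higher in EBC-1, 3 lower and 12 neither (median 0.63). That is 42.9% called, against 25.1% of all genes. HOXB3, which patterns the body axis, had 10.16, 10.24 and 10.35 in EBC-1, against 5.25, 5.58 and 5.42 in HCC827 (difference 4.83 ± 0.078), and ISL1 (4.34), SOX9 (3.32) and MEIS2 (2.73) were higher. SIX4 (-3.28), PAX9 (-2.86) and SOX4 (-2.41) were lower. Of 15 DNA methylation and Polycomb genes tested from 20, 2 were higher, CBX2 (1.38) and SUZ12 (1.16), and 3 lower (median -0.21). That is 33.3% called, against 25.1% of all genes. The 3 lower were the methyltransferase DNMT3A (-1.25), the maintenance methylation cofactor UHRF1 (-1.03) and TET3 (-1.0). Of 32 cancer-testis antigens, which are silent in most adult tissues, 5 were tested: PRAME was higher (2.18), CT83 (-6.29) and DDX43 (-5.73) were lower, and 2 were neither (median -0.36). Calls were 60% of the 5, against 25.1% of all genes. CT83 had 3.17, 3.66 and 3.02 in EBC-1, against 9.61, 9.59 and 9.51 in HCC827. Among 10 of 12 reference genes tested, HPRT1 (-1.05) was the 1 call, 10% against 25.1% of all genes. The median of the reference genes, 0.01, was -0.30 on the deposited values.

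**Figure D4:**
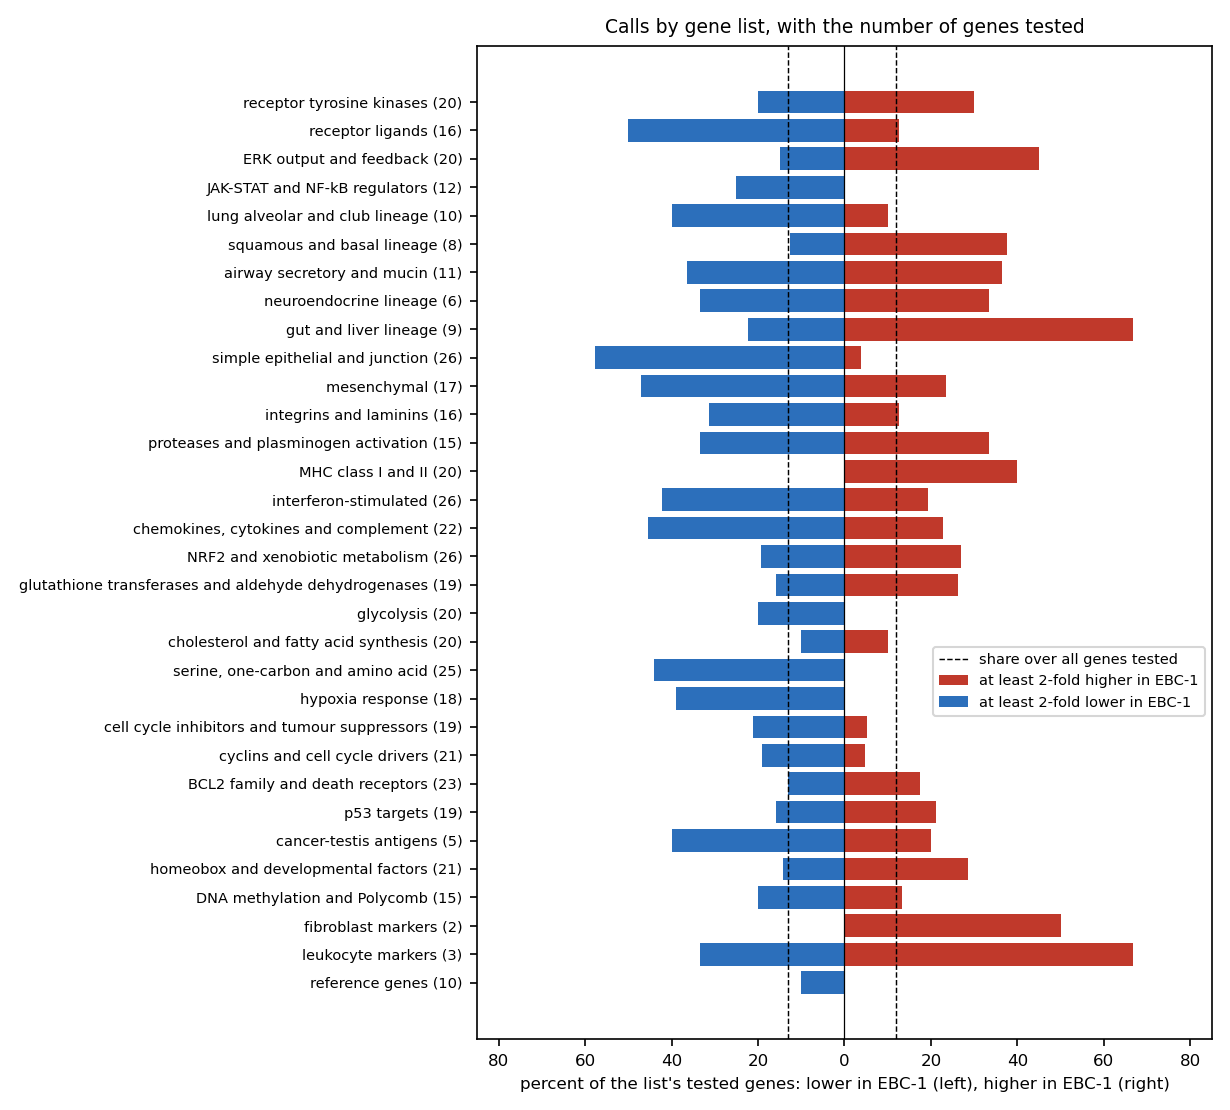
Percent of the tested genes of each list called at least 2-fold higher in EBC-1 (red, to the right) or lower (blue, to the left), with the number tested in parentheses; dashed lines mark the shares over all genes, 12% higher and 13.1% lower. Simple epithelial genes and receptor ligands reach furthest left, and among lists of over 5 tested genes the gut and liver list reaches furthest right.

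MET and EGFR lie on chromosome 7, and the genes next to each were read in order along it. Of the 12 tested genes on each side of MET, TSPAN12 (2.94), TMEM168 (2.67), ING3 (2.43), CAPZA2 (1.68), ZNF277 (1.63) and TES (1.21) were called higher in EBC-1. CAPZA2, an actin-capping subunit and the next tested gene, averaged 12.52 in EBC-1 and 10.84 in HCC827. On the other side the caveolin genes CAV1 (-0.99) and CAV2 (-0.18) were not higher in EBC-1, and MDFIC was called lower (-5.11), so the higher signals did not form an unbroken block.

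The genes past EGFR did form a run of lower values. LANCL2 (-3.44), VOPP1 (-2.54), MRPS17 (-1.44), NIPSNAP2 (-0.45), PSPH (-1.06), CCT6A (-1.49) and SUMF2 (-1.05) followed EGFR in order, each lower in EBC-1 and all but NIPSNAP2 called. Past SUMF2, PHKG1 (-0.09), CHCHD2 (-0.46) and ZNF680 (-0.15) were not called, and NUPR2 (1.66) and ZNF138 (1.18) were called higher in EBC-1. LANCL2 averaged 9.20 in EBC-1 and 12.64 in HCC827, and VOPP1 averaged 10.59 in EBC-1 and 13.13 in HCC827. Of the 12 genes on the other side, 7 were called higher in EBC-1, from ADCY1 (3.14) to TNS3 (1.20), and IGFBP3 was called lower (-1.17). Copy number was not measured. The neighbours of MET and EGFR were examined after the gene differences were known, so no test was made of them.

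**Figure D5:**
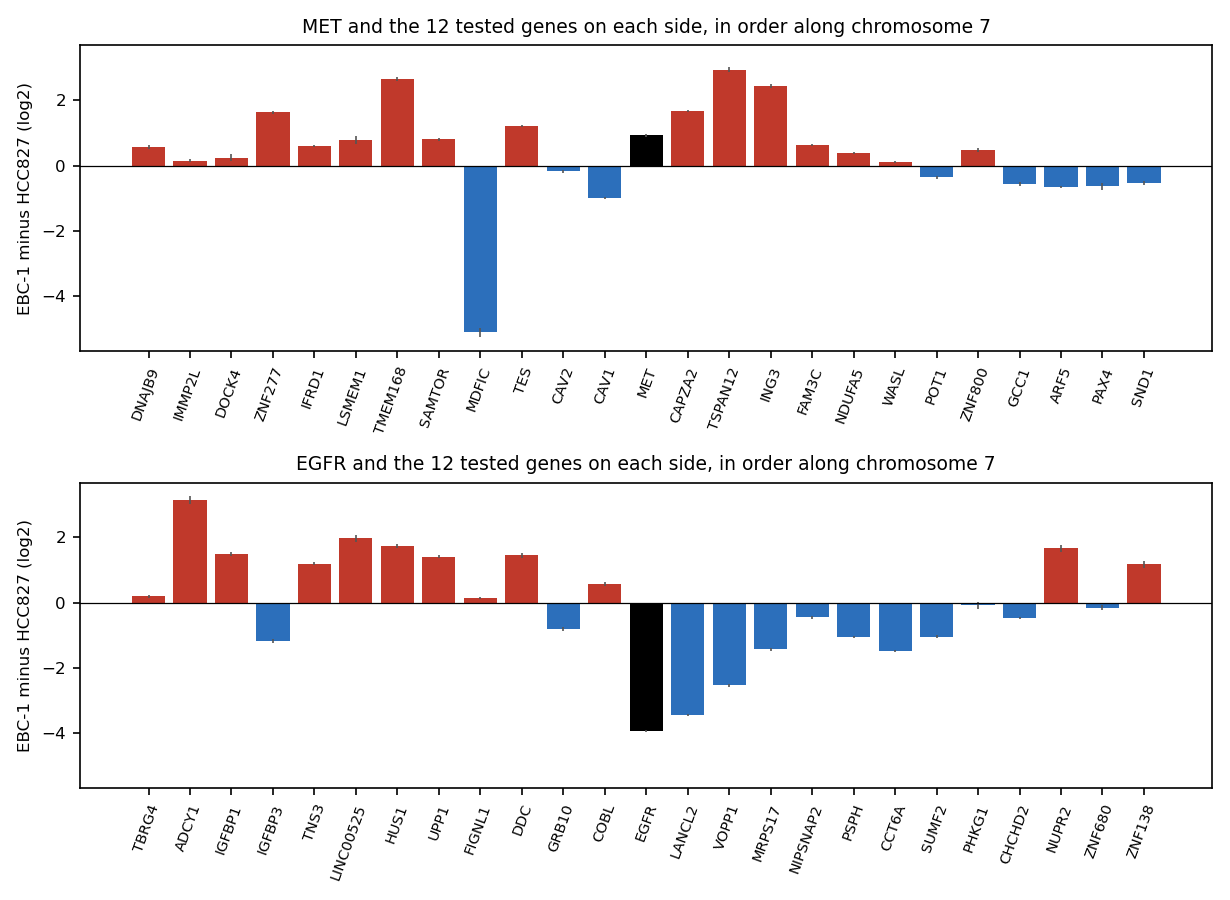
Difference between EBC-1 and HCC827 (log2, vertical axis, bars of 1 standard error, 3 arrays each) for MET (top, black) and EGFR (bottom, black) with the 12 tested genes on each side in their order along chromosome 7. EGFR at -3.94 is followed by a run of lower genes starting with LANCL2 at -3.44, and MET at 0.92 is followed by CAPZA2 at 1.68, TSPAN12 at 2.94 and ING3 at 2.43.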

How the data were processed

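Expression was measured on one-colour arrays. The authors deposited log2 signals, judged by their values, as a single table of probe sets by arrays. The submitters' processing notes name MAS5 without stating its role; for the scaling of the arrays, nothing was given in the sources used here. From their values the HCC827 arrays seem to have been scaled apart from the others, so the 6 columns were quantile normalized. Of 49395 probe sets, 102 were controls, 44988 had 1 gene, 1832 had several and 2473 had none in GEO's platform annotation, and 44961 of the single-gene sets matched RefSeq through Entrez IDs. The filter kept a probe set if it reached the 50th percentile of the array on at least 3 of 6 arrays, which left 24381 single-gene sets, and the brightest set stood for its gene.

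The fit used lmFit and trended eBayes of limma 3.58.1 (R 4.3.3), with 4 residual degrees of freedom, and p-values were adjusted by Benjamini-Hochberg over all 11329 genes at a threshold of 0.05. The method was tested on simulated data. Control probe sets had an exact permutation test, two-sided. The number of arrays limits the precision.

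Named genes are MET, HGF, EGFR, ERBB2 and ERBB3, the 15 largest differences in each direction among calls with no overlap and with the brighter line above the median of gene means, and up to 4 called members per direction of each of 32 lists. Defining markers of cell types, chromosome neighbours and windows of genes are named besides. Members and lists were chosen with earlier results of these data known. Groups were taken from the sample titles, since the source names of 2 HCC827 control arrays count upward in the name of the line. Of the calls, 302 rest on probe sets of a kind that may cross-hybridise. Alternatives were other scalings, filters, probe set rules, fits over 27 or 26 arrays, no trend, the replicate number as a block, and each array left out.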

Additional observations from a re-analysis of the deposited data

How the results depend on the processing

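Scaling and filtering moved the counts more than the fit did. At an adjusted p under 0.05 the deposited values gave 2456 genes higher and 7669 lower in EBC-1, with 808 and 2700 at 2-fold. With the filter at the 75th percentile, which tests 7005 genes, 951 were higher and 968 lower at 2-fold. Counting all kept probe sets in place of 1 per gene gave 10179 higher and 9487 lower, with 3155 and 3033 at 2-fold. The 2-fold counts were 1318 and 1518 under cyclic loess, 1318 and 1522 when centred on external controls, 1462 and 1613 without a filter, and 1356 and 1480 in a fit of 27 arrays. Leaving out 1 array at a time gave 1336 to 1427 higher and 1472 to 1521 lower. The replicate block gave 1361 and 1486, as without it. The deviations of same-numbered arrays correlated at 0.0333, -0.0899 and -0.0123. The labels do not say whether same-numbered arrays were handled together.

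Of the named genes, ERBB2 and ERBB3 changed direction, to -0.144 and -0.227 on the deposited values, and ERBB3 kept its 0.21 in the fit of 27 arrays at a limma adjusted p of 0.114. List medians turned to -0.096 (NRF2 and xenobiotic metabolism), -0.098 (glutathione transferases and aldehyde dehydrogenases) and -0.314 (p53 targets) on the deposited values, and to 0.135 (BCL2 family and death receptors) with arrays centred on their medians. With the 75th percentile filter they turned to 3.0 (neuroendocrine lineage) and 0.409 (proteases and plasminogen activation), where fewer genes are tested. The cause of the difference between the deposited scales was not tested. Of 1558 2-fold genes with several probe sets, 36 had a called set in the opposite direction.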

Other observations

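Differences were not spread evenly over the chromosomes. Chromosome medians ran from 0.76 on chromosome 13, where 72 of 184 genes were called higher in EBC-1 and 14 lower, to -0.43 on chromosome 14, where 21 of 374 were higher and 72 lower. On chromosome 7 the median was 0.39, with 151 of 554 genes higher and 55 lower, and on X it was -0.35, with 25 of 338 higher and 89 lower. In windows of 25 neighbouring tested genes, the medians had a 5th percentile of -0.74 and a 95th percentile of 0.65. The window from STEAP1 to PDK4 on chromosome 7 had the highest median, 1.88, with 18 genes higher and 3 lower, followed by POLR2J to CBLL1 on chromosome 7 (1.34), STARD13 to DNAJC15 on chromosome 13 (1.29), ELF2 to TMEM184C on chromosome 4 (1.29) and SLC25A13 to ZKSCAN1 on chromosome 7 (1.26). The window from DIAPH2 to RAB9B on X had the lowest, -2.47, with 1 gene higher and 22 lower, followed by LY96 to RIPK2 on chromosome 8 (-1.80, 5 higher and 13 lower). On chromosome 17 the windows from LIAT1 to TSR1 (-1.66, 0 higher and 19 lower), from DHX33 to EIF5A (-1.59, 0 and 15) and from AURKB to ZNF287 (-1.44, 0 and 16) were low as well. These are descriptions made after the differences were known, and no test was made of them.

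MKN-45 with DMSO was set beside both lines at the genes called between them, in a normalization of all 27 arrays, with no test. It was nearer to EBC-1 at 681 and nearer to HCC827 at 680 of the 1361 genes called higher in EBC-1, and nearer to EBC-1 at 812 and to HCC827 at 674 of the 1486 called lower. LDHB averaged 13.21 and CDH1 11.87 in MKN-45, beside 2.79 and 3.40 in EBC-1 and 13.06 and 11.83 in HCC827. GNG11 averaged 2.58 in MKN-45, beside 12.22 in EBC-1 and 3.24 in HCC827, while CEACAM6 averaged 11.58 in MKN-45, 11.58 in EBC-1 and 6.16 in HCC827.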
